A study of Mus musculus with 12 samples.

Results

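Chemokine receptors for inflamed sites and peripheral tissues are represented here by 5 genes, Cxcr3, Cxcr4, Cxcr6, Ccr2 and Ccr9, which were taken by symbol from the 16353 genes of the deposited count table, and each of the 5 was listed there. The libraries came from KB5 cells, alloreactive TCR-transgenic mouse CD8 T cells of the CBA/J background, and the study followed their transcripts through activation and through costimulation blockade. Activated cells had met H2b antigens on C57BL/6 splenocytes (10 M cells, where M is mega) injected intravenously as a donor-specific transfusion. For tolerized cells 0.5 mg of anti-CD154, which blocks the CD40 ligand, was added to this transfusion, and for inflamed cells anti-CD154 and 100 ug of LPS were added. Naive cells were untreated KB5 cells of the same strain. The treated spleens were taken 12 h after treatment, and cells positive for the KB5 receptor and CD8 were sorted to 95% purity. Each of the 4 groups held 3 libraries, 12 in all.

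Chemokine receptors are G protein-coupled receptors on the cell surface that read gradients of small secreted ligands and turn them into directed movement through Gi proteins. Resting T cells circulate through lymphoid organs, and after antigen they exchange part of their receptors for others that serve inflamed or epithelial sites. CXCR3 binds the interferon-induced ligands CXCL9, CXCL10 and CXCL11 and is a receptor of type 1 effector T cells, CCR2 binds CCL2 and is best known for taking monocytes out of the bone marrow, CXCR4 binds CXCL12 of bone marrow and lymphoid stroma, CXCR6 binds CXCL16 and retains T cells in liver and other tissues, and CCR9 binds CCL25 of the thymus and small intestine.

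Library totals ran from 29.3 to 84.5 M reads, and the 5 genes were covered by 36 reads (Ccr2 in tolerized replicate 1) to 36087 reads (Ccr9 in naive replicate 2). Levels are given as CPM, reads of a gene per M reads of the library after scaling with trimmed mean of M factors, and differences as log2(CPM + 1), a scale that understates the change of low genes. Summed CD8 T cell markers, 8 of 8 listed and none at 0 in a whole group, stood at 2207 to 3407 CPM in activated, 2512 to 3156 CPM in tolerized, 3368 to 3594 CPM in inflamed and 4481 to 5545 CPM in naive libraries. Libraries of 1 group differed widely after antigen. Mki67, a marker of cycling cells, had 5.11, 4.56 and 2.68 CPM in activated replicates 1 to 3, 2.96, 48.5 and 301 CPM in tolerized replicates 1 to 3, 4.50, 5.72 and 1.59 CPM in inflamed replicates 1 to 3, and 19.7, 24.3 and 51.2 CPM in naive replicates 1 to 3, so that tolerized replicate 3 stood apart from the other tolerized libraries. In RNA pooled from sorted cells, fewer cells with a transcript and less of it per cell cannot be told apart. The labels do not say whether the libraries of a group came from separate mice, so p-values cover the spread from library to library and no more.

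The promoter windows of the 4 receptors called in tolerized against naive cells are shown from RefSeq (GRCm38.p6), each with 250 bases before and 50 bases after the annotated start and printed along the gene's own strand. Capitals mark matches, on either strand, to 5 short motifs: CGCATGCG for NRF1, CACCC for KLF factors, GTAAACA for FOXO factors, GGTGTGA for T-box factors and GGAAA for NFAT. These are Cxcr4 (chr1:128592250-128592549, minus strand), Ccr9 (chr9:123766961-123767260, plus strand), Cxcr6 (chr9:123806227-123806526, plus strand) and Cxcr3 (chrX:101734098-101734397, minus strand).
Cxcr4: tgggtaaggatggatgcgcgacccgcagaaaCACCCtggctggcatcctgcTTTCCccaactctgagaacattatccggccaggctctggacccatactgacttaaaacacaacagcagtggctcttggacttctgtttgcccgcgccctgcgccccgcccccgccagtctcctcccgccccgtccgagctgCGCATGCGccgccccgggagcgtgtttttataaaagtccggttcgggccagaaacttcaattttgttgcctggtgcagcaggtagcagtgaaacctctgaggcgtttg
Ccr9: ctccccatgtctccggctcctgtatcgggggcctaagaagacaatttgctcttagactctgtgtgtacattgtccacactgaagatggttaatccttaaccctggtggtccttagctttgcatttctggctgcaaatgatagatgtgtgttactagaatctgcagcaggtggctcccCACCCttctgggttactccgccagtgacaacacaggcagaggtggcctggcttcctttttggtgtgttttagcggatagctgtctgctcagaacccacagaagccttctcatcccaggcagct
Cxcr6: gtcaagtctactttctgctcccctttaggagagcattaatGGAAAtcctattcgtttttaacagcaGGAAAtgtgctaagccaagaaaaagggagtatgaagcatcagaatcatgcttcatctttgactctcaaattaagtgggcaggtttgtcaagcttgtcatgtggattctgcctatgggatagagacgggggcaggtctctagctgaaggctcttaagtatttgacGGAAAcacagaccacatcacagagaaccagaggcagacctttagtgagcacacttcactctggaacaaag
Cxcr3: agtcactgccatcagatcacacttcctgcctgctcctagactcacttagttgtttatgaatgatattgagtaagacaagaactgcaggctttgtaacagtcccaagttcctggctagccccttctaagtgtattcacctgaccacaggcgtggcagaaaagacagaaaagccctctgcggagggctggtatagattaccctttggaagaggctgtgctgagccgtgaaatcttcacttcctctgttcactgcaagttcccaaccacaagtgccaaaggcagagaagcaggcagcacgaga
The Cxcr4 window held 1 NRF1, 1 KLF and 1 NFAT match, the Ccr9 window 1 KLF match, the Cxcr6 window 3 NFAT matches and the Cxcr3 window no match to the 5 motifs. The NRF1 letters, a motif that NRF1 is known to bind in the human CXCR4 promoter, occurred in 1.87% of all 32851 promoter windows, whereas KLF and NFAT letters occurred in 57.5% and 61.3% of them. The FOXO and T-box letters occurred in 3.65% and 3.98% of all windows and in none of these. The matched letters do not overlap one another, and a match describes the letters only.

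After antigen the level of Ccr9, Cxcr4 and Cxcr6 transcripts fell in activated, tolerized and inflamed cells alike, each relative to the same naive libraries. Cxcr3 was called higher in tolerized cells only, though its libraries lay above the naive ones in every treated group. Ccr2 was called lower in inflamed cells only, a call that remained in 3 of 12 fits without a library. Its activated libraries also lay below the naive ones. The test was limma on all 12 libraries, adjusted by Benjamini-Hochberg over the 12499 genes tested, with adjusted p under 0.05 as the threshold. In activated against naive cells 3 of the 5 receptors were lower and 0 higher, where 35.3% of all tested genes were called lower and 35.3% higher. In tolerized against naive cells 3 were lower and 1 higher, where 35.9% of all tested genes were called lower and 37.4% higher. In inflamed against naive cells 4 were lower and 0 higher, where 35.5% of all tested genes were called lower and 36.9% higher. With scaling by library size alone 39.1% of the activated, 39.6% of the tolerized and 38.6% of the inflamed calls were higher, against 50%, 51% and 51% here, and the receptors kept their directions. The 3 comparisons share their naive libraries. With so large a part of all genes called, the counts do not set the receptors apart from other genes.

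Between the treated groups few genes or none passed the same test. In tolerized against activated cells 0 of the 5 receptors passed, where 0.0% of all genes did, and 531 genes had an unadjusted p under 0.05 (limma-voom also called 0 genes). In inflamed against tolerized cells 0 of 5 passed, where 2.78% of all genes did. In inflamed against activated cells 0 of 5 passed, where 1.92% of all genes did, and with the replicate number as a block in these groups alone 68 genes in place of 240 passed, again with 0 receptors. Of the receptors Ccr9 alone had an unadjusted p under 0.05 by limma in these comparisons, at 0.00392 in tolerized against activated and 0.00263 in inflamed against tolerized cells.

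**Figure D1:**
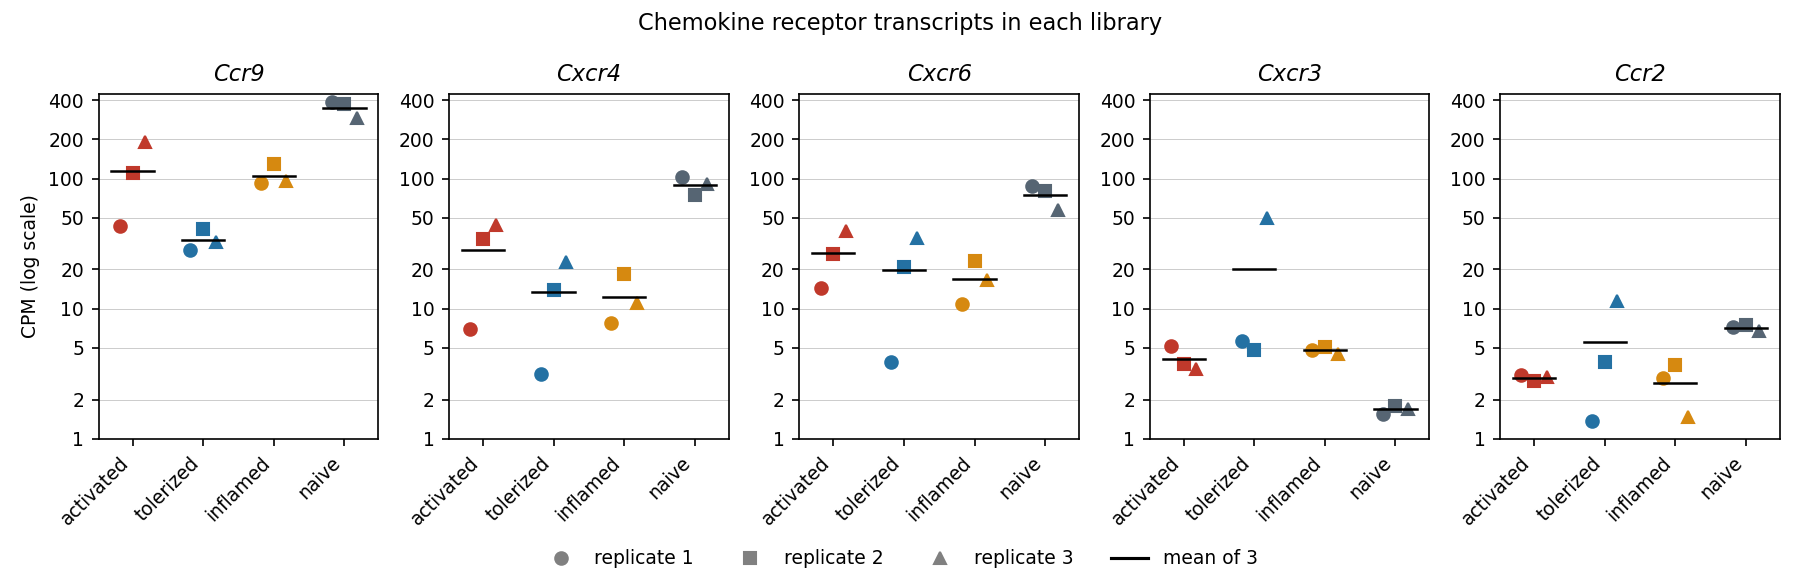
CPM on a log axis for the 5 receptors in activated, tolerized, inflamed and naive libraries; symbols are the 3 libraries of a group and bars their mean. Ccr9, Cxcr4 and Cxcr6 are highest in the naive libraries, and the single high Cxcr3 value of 49.95 CPM is tolerized replicate 3.

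Levels were set in order per kilobase of exon within each group. In activated cells the mean levels were 26.2 CPM per kb for Ccr9, 15.6 for Cxcr4, 14.1 for Cxcr6, 2.55 for Cxcr3 and 0.824 for Ccr2, and the libraries of Ccr9, Cxcr4 and Cxcr6 overlapped. In tolerized cells Cxcr3 averaged 12.5 CPM per kb, Cxcr6 10.5, Ccr9 7.71, Cxcr4 7.38 and Ccr2 1.55, and the libraries of each neighbouring pair in this order overlapped. The place of Cxcr3 rested on replicate 3 with 31.1 CPM per kb: over tolerized replicates 1 and 2 alone, chosen after seeing the data, the order was Ccr9 at 7.88, Cxcr6 at 6.58, Cxcr4 at 4.73, Cxcr3 at 3.25 and Ccr2 at 0.732 CPM per kb. In inflamed cells Ccr9 stood alone at 24.0 CPM per kb (20.9 to 29.4 over its libraries), above Cxcr6 at 8.99, Cxcr4 at 6.83, Cxcr3 at 2.98 and Ccr2 at 0.751, and among these only Cxcr6 and Cxcr4 overlapped. In naive cells the order was Ccr9 at 80.0 CPM per kb, Cxcr4 at 49.3, Cxcr6 at 39.7, Ccr2 at 1.99 and Cxcr3 at 1.05. There the libraries of Cxcr4 (41.5 to 56.5 CPM per kb) overlapped those of Cxcr6 (30.3 to 46.7), and no other neighbours did. Ccr9 in naive cells exceeded 94.9% of tested genes by this measure, and Cxcr3 exceeded 19.6%.

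Ccr9 (chromosome 9, 123767211 to 123783457), the receptor for the gut and thymic chemokine CCL25, fell in every treated group, and its level was lowest in tolerized cells. It had 43.4, 109 and 192 CPM in activated replicates 1 to 3, 28.3, 40.9 and 32.4 CPM in tolerized, 91.6, 129 and 94.9 CPM in inflamed, and 387, 376 and 291 CPM in naive replicates 1 to 3. Every treated library lay below every naive library, and the tolerized libraries lay below every activated and inflamed library. The share of all tested genes whose libraries lie apart in these ways was not counted, for Ccr9 or for the genes below. The mean was 32.7% of the naive mean in activated, 9.64% in tolerized and 29.97% in inflamed cells, and no tolerized library was above 11.6% of it.

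Against naive cells the log2 difference of Ccr9 was -1.83 ± 0.41 (SE) in activated cells, adjusted p = 0.00242. It was -3.34 ± 0.41 in tolerized cells (limma, adjusted p = 3.65e-05) and -1.74 ± 0.41 in inflamed cells (limma, adjusted p = 0.00301). Each of these calls remained in all 12 fits that left out a library. The tolerized level differed from the activated level by -1.51 ± 0.41 with a 95% interval of -2.42 to -0.60, which did not pass over all genes (limma, adjusted p = 0.961). Inflamed cells, which received LPS beside the blockade, differed from tolerized cells by 1.61 ± 0.41 (0.70 to 2.52), which did not pass (limma, adjusted p = 0.0717). Of 12 fits that left out a library, this difference passed in 2, without activated replicate 1 (limma, adjusted p = 0.00442) and without activated replicate 3 (adjusted p = 0.0202). In the other such fits the adjusted p by limma reached 0.24. The difference also passed with the inflamed and tolerized groups fitted alone (limma, adjusted p = 0.0169). Between inflamed and activated cells the interval was -0.81 to 1.01, and the difference of 0.10 turned to -0.50 without activated replicate 1 and to -0.08 without inflamed replicate 2. Ccr9 shares 22 of 10260 annotated exon bases with Slc6a20a on the opposite strand and more with noncoding transcripts outside the count table, and the sources used here do not say whether strand was used in counting.

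Cxcr4 (chromosome 1, 128588199 to 128592299), the CXCL12 receptor that directs cells to bone marrow and lymphoid stroma, was below its naive level in every treated group. It had 6.99, 34.3 and 43.7 CPM in activated replicates 1 to 3, 3.15, 14.0 and 23.0 CPM in tolerized, 7.71, 18.3 and 11.1 CPM in inflamed, and 103, 75.3 and 90.7 CPM in naive replicates 1 to 3. All 9 treated libraries were below all naive ones, whereas the treated groups overlapped each other. The group means came to 31.7% of the naive mean in activated, 14.96% in tolerized and 13.8% in inflamed cells.

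The log2 difference of Cxcr4 against naive cells was -1.95 ± 0.70 in activated cells (limma, adjusted p = 0.0283). It was -2.97 ± 0.70 in tolerized cells (limma, adjusted p = 0.00299) and -2.82 ± 0.70 in inflamed cells (limma, adjusted p = 0.00402). The activated call was lost without activated replicate 1, where the difference was -1.15 (limma, adjusted p = 0.123), without naive replicate 1 (adjusted p = 0.0711) and without naive replicate 3 (adjusted p = 0.0641), and the other calls remained in all 12 such fits. Differences between treated groups were -1.02 for tolerized against activated (-2.58 to 0.53), -0.88 for inflamed against activated (-2.43 to 0.68) and 0.15 for inflamed against tolerized cells (-1.41 to 1.70). The last turned to -0.58 without tolerized replicate 1 and to -0.16 without inflamed replicate 2. Paired by replicate number, a pairing that no label gives, Cxcr4 was lower in the tolerized than in the activated library in 3 of 3 pairs. With the replicate block in these groups alone the difference was -1.04 ± 0.12 without passing over all genes (limma, adjusted p = 0.605).

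Cxcr6 (chromosome 9, 123806477 to 123811754), the CXCL16 receptor of tissue-resident and liver T cells, was lower after antigen as well. It had 14.3, 26.1 and 39.8 CPM in activated replicates 1 to 3, 3.91, 21.0 and 34.8 CPM in tolerized, 10.9, 23.4 and 16.7 CPM in inflamed, and 88.3, 79.7 and 57.4 CPM in naive replicates 1 to 3. The naive libraries were again above every treated library, and the treated groups overlapped. The log2 difference was -1.55 ± 0.63 in activated cells (limma, adjusted p = 0.0459), -2.25 ± 0.63 in tolerized cells (limma, adjusted p = 0.00753) and -2.12 ± 0.63 in inflamed cells (limma, adjusted p = 0.0106).

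The tolerized and inflamed calls of Cxcr6 remained in all 12 fits that left out a library, and the activated call in 3 of 12, with adjusted p up to 0.165 without activated replicate 1. Between treated groups Cxcr6 differed by -0.71 in tolerized against activated (-2.10 to 0.68), 0.14 in inflamed against tolerized (-1.25 to 1.52) and -0.57 in inflamed against activated cells (-1.96 to 0.82). Paired by replicate number, Cxcr6 too was lower in tolerized than in activated libraries in 3 of 3 pairs, at -0.72 ± 0.31 with the replicate block in these groups alone (limma, adjusted p = 0.650). Without tolerized replicate 1 the first of these differences turned to 0.12 and the second to -0.70, and without inflamed replicate 2 the second turned to -0.11.

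Cxcr6 lies inside Fyco1, a gene on the opposite strand that encodes an adaptor for autophagosome transport, and the annotated exons of both share 0 bases. Fyco1 had 16.4, 49.0 and 74.3 CPM in activated replicates 1 to 3, 19.5, 26.4 and 38.7 CPM in tolerized, 24.9, 40.2 and 28.0 CPM in inflamed, and 159, 142 and 147 CPM in naive replicates 1 to 3. It was lower in activated (-1.89), tolerized (-2.41) and inflamed cells (-2.26), and each passed. Within 1 library the ratio of Cxcr6 to Fyco1 CPM ran from 0.532 to 0.873 in activated, 0.200 to 0.899 in tolerized, 0.439 to 0.597 in inflamed and 0.392 to 0.562 in naive libraries, so the levels of both genes did not keep 1 ratio.

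Cxcr4 and Cxcr6 followed each other from library to library. Among the 9 treated libraries, tolerized replicate 1 was lowest for each gene and activated replicate 3 highest, and the replicate 1 library was the lowest of each treated group. The same held for Ccr9, which differed from them in its spread within the tolerized group. There Cxcr4 and Cxcr6 spread widely, with an SD of log2(CPM + 1) of 1.31 and 1.49, above 98.4% and 99.0% of tested genes, whereas Ccr9 had an SD of 0.26 and stayed low in all 3 libraries. In activated cells Ccr9 had an SD of 1.07 and Cxcr4 of 1.35.

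**Figure D2:**
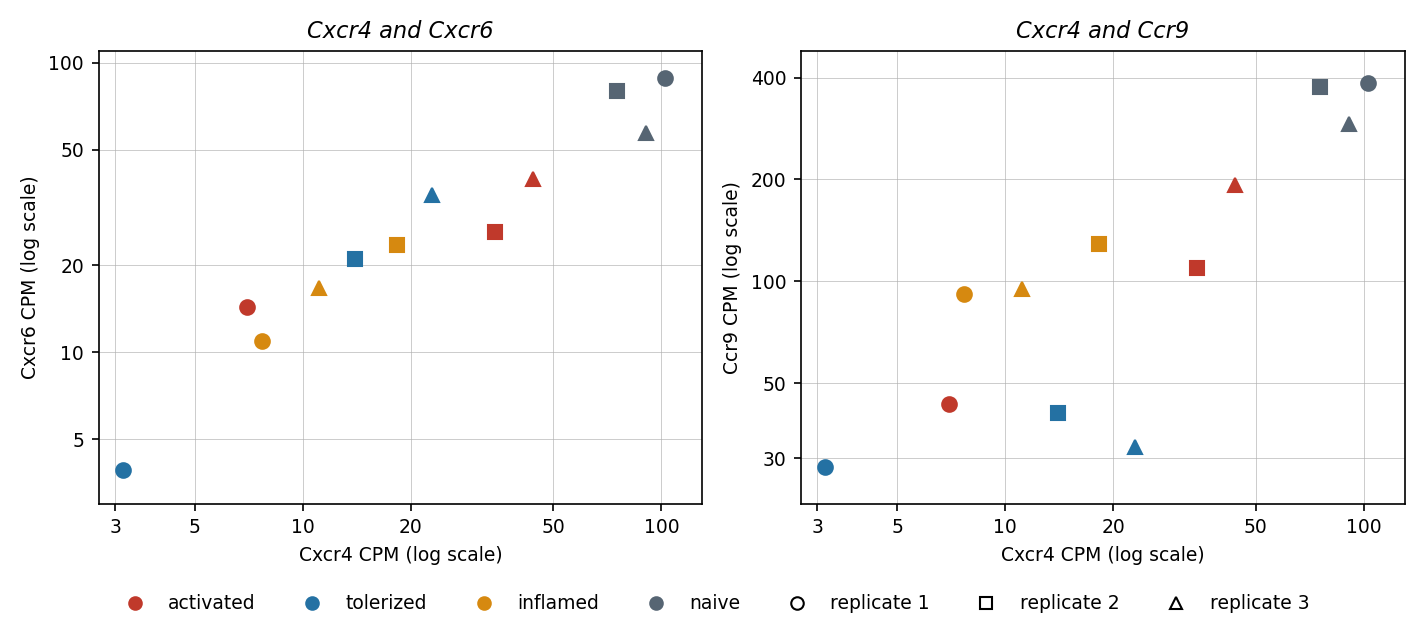
Cxcr4 CPM against Cxcr6 CPM (left) and Ccr9 CPM (right), log axes; colours are the groups and symbols the replicates. Cxcr4 and Cxcr6 line up over all 12 libraries, while the tolerized libraries lie at 28.3 to 40.9 CPM of Ccr9 whatever their Cxcr4 level.

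Cxcr3 (chromosome X, 101731535 to 101734147), the receptor of type 1 effector cells, was the only one of the 5 whose treated libraries were all above the naive ones. It had 5.15, 3.73 and 3.41 CPM in activated replicates 1 to 3, 5.66, 4.78 and 49.95 CPM in tolerized, 4.80, 5.04 and 4.52 CPM in inflamed, and 1.54, 1.80 and 1.71 CPM in naive replicates 1 to 3. The treated libraries stayed at a low level, except for tolerized replicate 3, which stood far above every other library.

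The log2 difference of Cxcr3 against naive cells was 2.22 ± 0.64 in tolerized cells (limma, adjusted p = 0.00883), and without tolerized replicate 3 it was 1.21 ± 0.17 (limma, adjusted p = 0.000138). In activated cells it was 0.91 ± 0.64 (limma, adjusted p = 0.219) and in inflamed cells 1.11 ± 0.64 (limma, adjusted p = 0.138), where neither passed. Since all groups share 1 estimate of the spread, tolerized replicate 3 also entered the errors of these comparisons, and without it the differences were 0.91 ± 0.15 in activated cells (limma, adjusted p = 0.000441) and 1.11 ± 0.15 in inflamed cells (limma, adjusted p = 0.000106). Each also passed where the pair of groups was fitted alone (adjusted p = 0.00259 and 0.000153 by limma). Between treated groups the intervals of Cxcr3 were -0.10 to 2.72 for tolerized against activated, -2.52 to 0.29 for inflamed against tolerized and -1.21 to 1.61 for inflamed against activated cells.

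Tbx21 encodes T-bet, a transcription factor known to drive Cxcr3 in effector T cells, and it was highest in inflamed cells. Tbx21 had 7.38, 6.58 and 6.82 CPM in activated replicates 1 to 3, 7.14, 6.65 and 30.7 CPM in tolerized, 163, 117 and 92.6 CPM in inflamed, and 1.02, 1.54 and 1.02 CPM in naive replicates 1 to 3. Tbx21 rose by 3.94 ± 0.45 in inflamed against activated cells (limma, adjusted p = 0.00139) and by 3.28 ± 0.45 in inflamed against tolerized cells (limma, adjusted p = 0.00289), whereas Cxcr3 differed by 0.20 and -1.11 there without passing. Within the tolerized group, replicate 3 was the highest for both genes, and both were above their naive libraries in every treated library. The part of T-bet in the Cxcr3 levels was not tested.

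Ccr2 (chromosome 9, 124101918 to 124109140), the CCL2 receptor, was scarce throughout. It had 3.10, 2.77 and 2.999 CPM in activated replicates 1 to 3, 1.37, 3.88 and 11.4 CPM in tolerized, 2.94, 3.68 and 1.47 CPM in inflamed, and 7.20, 7.55 and 6.69 CPM in naive replicates 1 to 3. The activated and inflamed libraries were all below the naive ones, and the tolerized libraries lay on either side of them, with replicate 3 the highest of all.

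The log2 difference of Ccr2 was -1.19 ± 0.47 in inflamed against naive cells (limma, adjusted p = 0.0400), a call that remained in 3 of 12 fits without a library, with adjusted p up to 0.144. In activated cells it was -1.04 ± 0.47 (limma, adjusted p = 0.0673), which passed without tolerized replicate 3 (adjusted p = 0.00787) or without tolerized replicate 1 (adjusted p = 0.0177). In tolerized cells it was -0.64 ± 0.47 (limma, adjusted p = 0.240), with an interval of -1.67 to 0.40, and it was -1.26 without tolerized replicate 3 (limma, adjusted p = 0.00503) and -0.05 without tolerized replicate 1. Between treated groups Ccr2 differed by 0.41 in tolerized against activated (-0.63 to 1.44), -0.55 in inflamed against tolerized (-1.59 to 0.48) and -0.15 in inflamed against activated cells (-1.18 to 0.89). Without tolerized replicate 3 the first was -0.22 and the second 0.07, and without inflamed replicate 3 the last was 0.11.

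Monocytes also express Ccr2 and Cxcr4, and B cells Cxcr4, and markers of those cells differed between the groups. The summed monocyte and macrophage markers, 16 of 16 listed and none at 0 in a whole group, came to 742, 171 and 60.0 CPM in activated replicates 1 to 3, 142, 115 and 108 CPM in tolerized, 670, 221 and 19.5 CPM in inflamed, and 733, 1810 and 1881 CPM in naive replicates 1 to 3. Beside these sums Ccr2 had 2.77 to 3.10 CPM in the activated libraries, 1.37 to 11.4 CPM in the tolerized ones, 1.47 to 3.68 CPM in the inflamed ones and 6.69 to 7.55 CPM in the naive ones. The list joins monocyte and macrophage genes, so its sum does not follow monocytes alone. In naive replicate 3, Vcam1 gave 431 CPM of it, Csf1r 368 CPM and C1qa 197 CPM, whereas Ly6c2 gave 6.72 CPM. In inflamed cells Ccr2 and the monocyte and macrophage sum were lowest in replicate 3, but Ccr2 was highest in replicate 2 and the sum in replicate 1. In activated cells Ccr2 kept its narrow range while the sum fell from 742 to 60.0 CPM. In tolerized cells replicate 3 had the highest Ccr2 and the lowest sum. Of that sum of 108 CPM, Ly6c2 alone gave 60.2 CPM, against 1.06 and 1.81 CPM in replicates 1 and 2. B cell markers, 8 of 8 and none at 0 in a whole group, summed to 98.8 to 122 CPM in activated, 80.0 to 169 CPM in tolerized, 85.5 to 126 CPM in inflamed and 351 to 452 CPM in naive libraries, and the part of monocytes and B cells in the Ccr2 and Cxcr4 differences was not tested. Cxcr6 is also a transcript of NK and innate-like T cells, whose markers, 6 of 6 with Klra8 at 0 in all activated libraries, summed to 254 to 331 CPM in activated, 235 to 474 CPM in tolerized, 133 to 177 CPM in inflamed and 6.61 to 7.82 CPM in naive libraries, where Cxcr6 was highest. Eomes, which CD8 T cells also use, made up nearly all of that sum in treated libraries. Without Eomes, a summary chosen after seeing the data, the other 5 markers summed to 1.71 to 2.92 CPM in activated, 2.01 to 2.97 CPM in tolerized, 0.740 to 1.17 CPM in inflamed and 2.89 to 3.36 CPM in naive libraries. Among them Ncr1 had 0.576 to 0.712 CPM in activated, 0.402 to 1.11 CPM in tolerized, 0.156 to 0.596 CPM in inflamed and 1.95 to 2.26 CPM in naive libraries, and the part of such cells in the Cxcr6 difference was not tested.

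Of the other marker sums, neutrophil genes, 6 of 8 listed, reached 10.6 to 203 CPM in inflamed libraries against 1.01 to 12.7 CPM in activated, 1.79 to 9.49 CPM in tolerized and 12.1 to 18.1 CPM in naive libraries. Erythroid markers, 5 of 5, summed to 20.1 to 152 CPM in activated, 24.8 to 78.6 CPM in tolerized, 10.1 to 61.5 CPM in inflamed and 494 to 1187 CPM in naive libraries. Dendritic cell markers (7 of 7) lay at 27.8 to 68.5 CPM in treated and 84.6 to 141 CPM in naive libraries, plasma cell markers (4 of 4) at 67.6 to 115 CPM in treated and 156 to 211 CPM in naive libraries, CD4 and regulatory T cell markers (4 of 4) at 41.4 to 61.1 CPM in treated and 57.7 to 78.9 CPM in naive libraries, and platelet markers (4 of 4) at no more than 5.12 CPM anywhere, with Pf4 and Ppbp at 0 in all activated, Pf4 in all tolerized and Gp9 in all inflamed libraries. The part of these cells in the receptor differences was not tested.

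**Figure D3:**
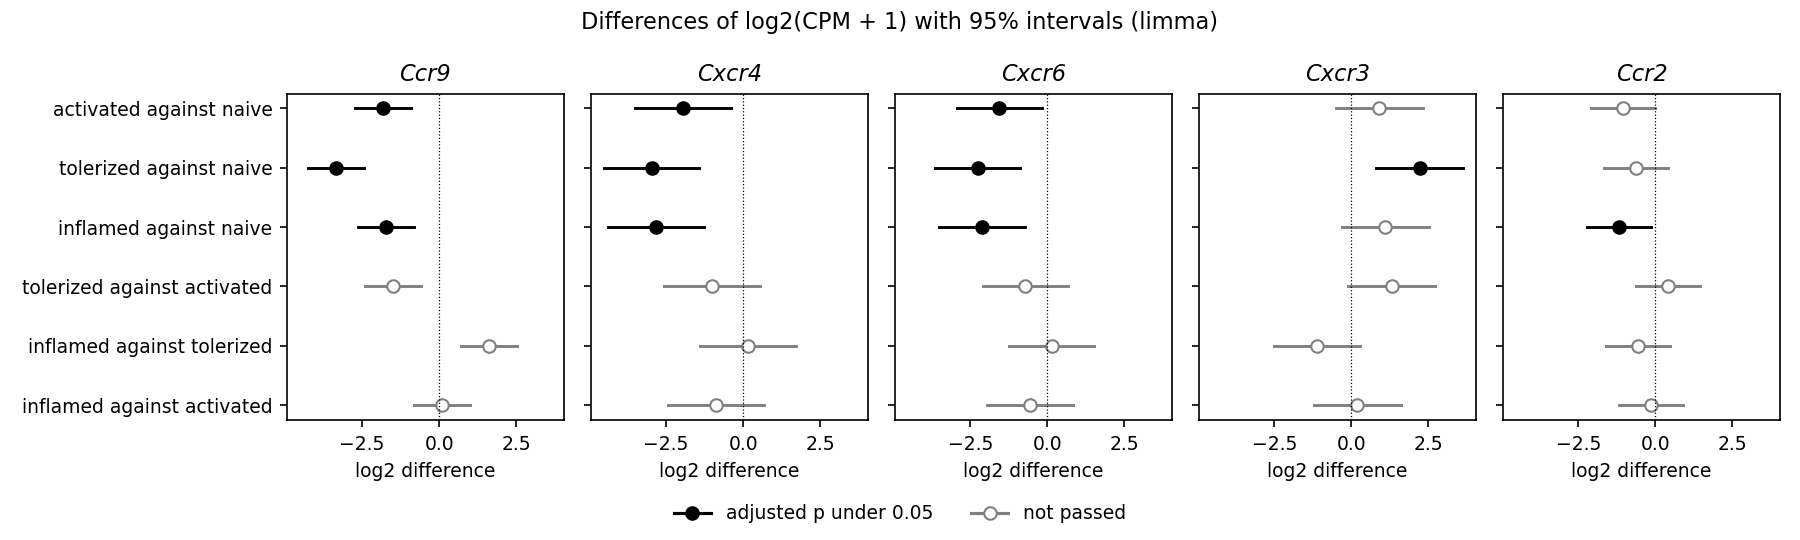
Differences of log2(CPM + 1) with 95% intervals for the 5 receptors in the 6 comparisons, the group named first minus the other; filled points passed an adjusted p of 0.05 by limma. The filled points are 11 of 30, all in comparisons against naive cells, and Cxcr3 in tolerized cells is the only one above 0.

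Ccr9, Cxcr6 and Ccr2 belong to a run of chemokine receptor genes on chromosome 9, and its genes differed in direction and size. Ccr3, a receptor of eosinophils, fell furthest among them, with log2 differences of -2.93 in activated, -4.14 in tolerized and -5.18 in inflamed cells. Its mean levels were 11.3 CPM in activated, 3.81 CPM in tolerized and 1.43 CPM in inflamed cells against 80.0 CPM in naive cells. Ccr3 had 21.9, 8.26 and 3.84 CPM in activated replicates 1 to 3 and 5.51, 4.66 and 1.25 CPM in tolerized ones. It had 1.65, 2.63 and 0 CPM in inflamed and 47.5, 100 and 92.2 CPM in naive replicates 1 to 3. Over the replicates it kept the order of the monocyte and macrophage sum in activated and tolerized cells, but not in inflamed and naive cells. The part of other cells in the Ccr3 differences was not tested. Ccr1l1 and Xcr1 were called lower in each treated group as well, at mean levels of at most 1.95 CPM. Ccr1 passed in none of these comparisons. Lztfl1, beside Ccr9 and no receptor gene, rose by 1.66 in activated, 1.5 in tolerized and 1.52 in inflamed cells.

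**Figure D4:**
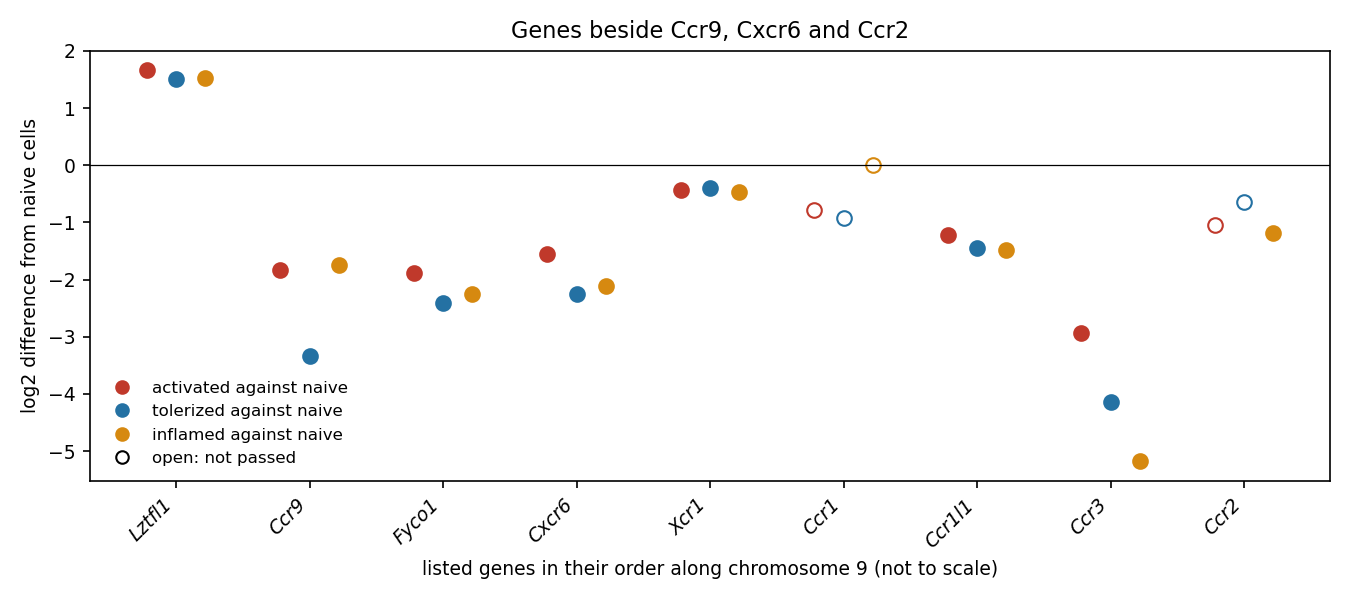
Log2 difference from naive cells for the genes around Ccr9, Cxcr6 and Ccr2 in their order along chromosome 9, not to scale; colours are the treated groups and open circles did not pass. Neighbours differ in direction and size, with Lztfl1 above 0 at 1.5 to 1.66 and Ccr3 at -2.93 to -5.18.

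Beyond the 5 receptors, 15 of 18 other chemokine and atypical chemokine receptor genes were tested, and 8 were lower and 0 higher in activated, 8 lower and 0 higher in tolerized, and 9 lower and 1 higher in inflamed against naive cells. Over all tested genes 35.3% were called lower and 35.3% higher in activated, 35.9% lower and 37.4% higher in tolerized, and 35.5% lower and 36.9% higher in inflamed cells. The median differences of these receptors were -0.44, -0.61 and -0.43 in that order, beside -0.04, -0.01 and -0.01 over all tested genes. Ccr7, the receptor for lymph node entry, was among the lower genes, by -0.69 in activated, -0.85 in tolerized and -0.82 in inflamed cells, and Ccr6 by -1.24, -1.28 and -1.61 in the same order. The gene that was higher was Cxcr5, the receptor for B cell follicles, at 43.9, 39.9 and 35.7 CPM in inflamed replicates 1 to 3 and 14.4, 15.2 and 14.1 CPM in naive replicates 1 to 3, a difference of 1.39 ± 0.30 (limma, adjusted p = 0.00178). Cxcr5 was also the only one of these genes to pass between treated groups, at 1.57 ± 0.30 in inflamed against activated cells (limma, adjusted p = 0.0234).

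Of 9 listed ligand genes of the 5 receptors 7 were in the table used here and 4 were tested. None passed in activated or tolerized cells, and 2 were higher in inflamed against naive cells. These were Cxcl10, a CXCR3 ligand, at 30.9, 7.93 and 4.10 CPM in inflamed replicates 1 to 3 and 0.305, 0.635 and 1.34 CPM in naive replicates 1 to 3 (2.73 ± 0.85, adjusted p = 0.0135 by limma), and Cxcl12, the CXCR4 ligand, at 0.581 to 2.11 CPM in inflamed and 0.0787 to 0.187 CPM in naive libraries. In inflamed cells Cxcl10 was highest in replicate 1. That library had the highest neutrophil sum and the highest monocyte and macrophage sum of its group, and the part of those cells was not tested.

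Of 19 genes that carry the receptor signal, all tested, 13 were lower and 5 higher in activated, 12 lower and 5 higher in tolerized, and 12 lower and 5 higher in inflamed against naive cells, with medians of -1.09, -0.92 and -1.23, beside all-gene medians of -0.04, -0.01 and -0.01. Of all tested genes 35.3% to 35.9% were called lower and 35.3% to 37.4% higher in these comparisons. Arrb1, which encodes a beta-arrestin that uncouples and internalises receptors, differed by -2.59 in activated, -3.09 in tolerized and -3.9 in inflamed cells. Pik3r5, a regulatory subunit of the PI3K that G proteins activate, differed by -2.02, -2.21 and -2.61, and Rac2, a GTPase of the actin cytoskeleton, by -1.97, -1.76 and -2.27 in the same order. Gnai2, the main Gi alpha subunit of lymphocytes, differed by -1.31, -1.10 and -1.44, and all of these passed. Rap1a, a GTPase that activates integrins, rose by 1.10, 1.24 and 1.27, and none of the 19 passed between treated groups.

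Of 18 homing partners and regulators tested, 10 were lower and 6 higher in activated, 10 lower and 6 higher in tolerized, and 11 lower and 6 higher in inflamed against naive cells, with medians of -0.91, -1.12 and -1.10. The share that was higher was close to the 35.3% to 37.4% of all tested genes called higher, where 35.3% to 35.9% were called lower and the all-gene medians were -0.04, -0.01 and -0.01. Integrin genes that serve homing to and retention in the gut, Itga4, Itgb7 and Itgae, were lower in each treated group. Itgae, the alpha E chain that binds epithelial E-cadherin, had 5.11, 20.9 and 41.5 CPM in activated replicates 1 to 3, 4.48, 4.58 and 5.33 CPM in tolerized, 5.66, 18.7 and 10.7 CPM in inflamed, and 184, 145 and 147 CPM in naive replicates 1 to 3. As with Ccr9, its tolerized libraries were low and close together and lay below every inflamed library. Unlike with Ccr9, activated replicate 1 of Itgae, at 5.11 CPM, lay within the tolerized range, and inflamed replicate 1, at 5.66 CPM, lay just above it. Itgb7, the partner chain of the alpha E and alpha 4 integrins, fell as well, with log2 differences of -3.01 in activated, -3.59 in tolerized and -3.97 in inflamed cells, and unlike Ccr9 it spread in tolerized cells, at 21.4, 45.6 and 211 CPM in replicates 1 to 3.

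S1pr1, which lets lymphocytes leave lymphoid organs, was lower with log2 differences of -3.43 in activated, -4.58 in tolerized and -4.91 in inflamed cells, and Klf2, a transcription factor known to drive S1pr1, with -3.35, -3.86 and -3.9 in the same order. Eomes, a T-box factor of effector and memory CD8 T cells, rose by 5.78, 5.93 and 4.89. Between inflamed and activated cells 4 of the 18 passed, all higher, among them Tbx21, Runx3 and Hif1a with log2 differences of 3.94, 0.57 and 0.41. Between inflamed and tolerized cells 2 were higher, among them Tbx21 (3.28), and 1 was lower, Eomes (-1.04).

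Over the 12 libraries the genes closest to each receptor, by Pearson's r of log2(CPM + 1) among 10242 genes that averaged 1 CPM or more, were Ifngr2 for Ccr9 (r = 0.973), Acyp1 for Cxcr4 (0.981), Kbtbd3 for Cxcr6 (0.968), Cmtm7 for Ccr2 (0.970) and Dsp for Cxcr3 (0.965). All genes share the same libraries, in which naive and treated cells lie apart for many genes, and 1081 genes had an r over 0.9 with Cxcr4, 544 with Cxcr6, 201 with Ccr9, 63 with Ccr2 and 16 with Cxcr3. These values describe likeness over 12 libraries and carry no test.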

How the data were processed

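The 12 libraries were mRNA of sorted mouse T cells sequenced on an Illumina HiSeq, per the labels' protocols, whose extraction text also speaks of embryonic fibroblasts in culture, which does not match the sorted cells. Per the submitters' processing notes TopHat2, bedtools and DESeq were used with mm10 and GRCm38, and their versions and roles are not given in the sources used here. The deposited values are whole read counts per gene, not normalized, written with commas between groups of 3 digits. The format check reads such values as text, and for that reason limma on log2 values was chosen as the main test. The commas were removed before every fit, so the counts themselves did not prevent a count model, but none was run. limma-voom, which starts from the counts, was run as an alternative. Reads are not independent molecules, and low read counts carry counting error beyond the spread shown.

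Commas were removed, counts were scaled by the trimmed mean of M method (factors of 0.897 to 1.22, coded in R 4.3.3) with 30% of M and 5% of A trimmed, and 12499 genes with at least 0.258 CPM (10 reads at the median library size) in 3 libraries and 15 reads in all were kept. limma 3.58.1 (lmFit, eBayes with trend) fitted 4 group means to log2(CPM + 1) of all 12 libraries, with Benjamini-Hochberg adjustment over all tested genes in each of 6 comparisons and a threshold of 0.05. The script was tested on simulated data. The members and gene lists were chosen with earlier results of these data known. Beyond the receptors the text names genes of the lists with the largest differences, genes around members and the genes most like a member, and some genes of these lists are not reported here. Symbols were matched to RefSeq (GRCm38.p6) for positions and promoter windows, and overlapping exons come from the GENCODE vM21 annotation.

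Replicate numbers recur in each group. Deviations from the group means correlated between libraries of the same number in tolerized and activated cells (r = 0.60, 0.19 and 0.58). The same held in inflamed and activated cells (0.64, 0.23 and 0.15). Some libraries of unlike number correlated as well, tolerized replicate 3 with activated replicate 2 at 0.21 and inflamed replicate 2 with activated replicate 3 at 0.56. The numbers were tried as a pairing of these libraries, but these values do not settle it and no label gives it. In the other 4 comparisons at least 1 pair fell to 0.10 or below. Alternatives were other scalings, filters, pseudocounts, limma-voom, the groups compared alone, the replicate block, and each library left out in turn.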

Additional observations from a re-analysis of the deposited data

How the results depend on the processing

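Of 30 results (5 receptors in 6 comparisons), 11 passed, and 8 of these 11 passed in every alternative that gave a value; the exceptions were Cxcr4 and Cxcr6 in activated cells and Ccr2 in inflamed cells, each against naive cells. Over 729 values 670 kept their direction and side of the threshold, 25 lost a call, 22 gained one and 12 changed sign, none of these among called results. A filter at 5 CPM removed Cxcr3. Against naive cells the median of all genes shifted with library-size scaling (-0.22 for activated, -0.24 for tolerized, -0.27 for inflamed cells) and with upper-quartile scaling (-0.16, -0.18 and -0.17). With library-size scaling 39.1%, 39.6% and 38.6% of calls were higher, against 50%, 51% and 51% as reported, and no receptor changed direction.

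Receptors called in activated against naive cells numbered 5 with these groups alone, 5 with the replicate block in these groups alone, 5 without activated replicate 3 and tolerized replicate 3 together (chosen after seeing the data), and 1 to 5 when each library was left out. In inflamed against tolerized cells 1 receptor, Ccr9, was called with these groups alone and 1 without activated replicate 3 and tolerized replicate 3, and 0 to 1 when each library was left out. Genes called numbered 0 to 60 in tolerized against activated cells when each library was left out. In inflamed against tolerized cells they numbered 158 with these groups alone, 0 with the replicate block there, 195 with the 9 treated libraries alone (chosen after seeing the data) and 157 to 540 when each library was left out. In inflamed against activated cells they numbered 101 with these groups alone and 68 with the replicate block there. With the 9 treated libraries alone they numbered 144, and 107 to 328 when each library was left out. The block with all 12 libraries changed 1 receptor call, Ccr2 in inflamed against naive cells (adjusted p = 0.0543).

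The differences that changed sign, none of them called, ran when each library was left out from -1.30 to 0.12 for Cxcr6 and -0.22 to 0.97 for Ccr2 in tolerized against activated cells, from -0.58 to 0.68 for Cxcr4, -0.70 to 0.73 for Cxcr6 and -1.13 to 0.07 for Ccr2 in inflamed against tolerized cells, and from -0.50 to 0.58 for Ccr9 and -0.36 to 0.11 for Ccr2 in inflamed against activated cells. Without activated replicate 3 and tolerized replicate 3 together, Ccr2 was -0.21 in tolerized against activated and 0.07 in inflamed against tolerized cells. The cause of these changes was not tested. Depth limits Ccr2 and Cxcr3 most, which had as few as 36 and 65 reads in a library.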
